A study of Homo sapiens with 6 samples.

Results

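The forkhead genes were followed in H2122, an established line of human lung cancer cells, across 3 SMARCA4 knockout libraries and 3 of the parental line. The cells of all 6 had been given vehicle. Members were the gene symbols made of FOX, a letter from A to S, a number and at most 1 further letter, which gave 46 of the 59050 symbols counted. The rule used names only and no measured value. It leaves out the FOXD4L copies and the non-coding RNAs named after forkhead genes. FOXO1B and FOXO3B, annotated as processed pseudogenes, are among the 46. In the titles the number after the group name is 1 for every knockout library and 1, 3 and 6 for the parental ones. What it marks is not stated, so the knockout libraries may come from 1 clone. No label ties the replicates to separate cultures, and the p-values therefore measure the spread between these libraries, which may be technical.

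Forkhead factors share a winged helix DNA-binding domain and mostly recognise the same short core sequence, so which members a cell makes, and how much of each, shapes what the family does there. FOXA proteins are pioneer factors that bind closed chromatin in endoderm, and in the lung they act with NKX2-1 in airway and alveolar epithelium. FOXC and FOXF proteins belong to mesoderm and mesenchyme, FOXO proteins are held out of the nucleus by AKT and SGK kinases, FOXM1 drives mitotic genes, and FOXJ1 drives motile cilia. The product of SMARCA4 is a motor subunit of SWI/SNF complexes, which slide and evict nucleosomes.

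The libraries held between 55120937 and 59917980 gene reads, and 3 reads corresponded to between 0.0497 and 0.0544 CPM (read counts set against the library total scaled by TMM factors), a limit that covers counting error only. SMARCA4 stood at 19.3 to 24.9 CPM in the knockout and 214 to 335 CPM in the parental libraries. Parental replicate 3 stood apart from the other parental libraries on the second principal component, and results are given with and without it. Of 10 epithelial markers, all were detected in every library. Their summed level was 3205 to 3473 CPM in the knockout and 8122 to 8471 CPM in the parental group, with 9 falling. Of 9 fibroblast markers, 3 rose and 1 fell, with sums of 92.0 to 98.1 and 39.5 to 112 CPM, THY1 at 0 in every library and PDGFRA at most 0.0350 CPM. The 8 endothelial markers summed to 0.721 to 1.82 CPM in any library and the 9 blood markers to 0.581 to 1.92 CPM, with PTPRC at 0 in all of them.

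Of the 46 members, 25 passed the filter on low counts, 15 had reads but did not pass, and 6 (among them FOXF1, FOXI2, FOXO1B, FOXR1 and FOXR2) had no read in any library. Among the 25, FOXC1, FOXA3, FOXN2 and FOXO3B rose in the knockout, and FOXA1, FOXA2, FOXP1 and FOXO3 fell (edgeR quasi-likelihood test, Benjamini-Hochberg adjusted p under 0.05 over 17809 genes). That is 8 of 25 members, or 32%, where 27.6% of all genes tested were called, 13.3% rising and 14.3% falling. The median log2 fold change of the 25 was -0.05, against 0.02 over all genes. No overlap between the groups was seen for 13 of the 25 members, and 49.8% of all genes tested had groups that did not overlap. Without parental replicate 3, 28 members were tested, of which 6 rose and 14 fell, or 71.4%, where 61.6% of all genes were called, 30.8% rising and 30.8% falling. With all 6 libraries the called share was near that of all genes, and the count by itself is not a result about the family. All 8 members called with 6 libraries were called in the same direction without parental replicate 3. Leaving out any other library left 2 to 4 risers and 2 or 3 fallers.

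The members varied little within the knockout. Their median coefficient of variation was 5.43% over the 3 knockout libraries and 26.2% over the 3 parental ones, and 7.10% over parental replicates 1 and 2 alone. Parental replicate 3 lay outside the range of the other 5 libraries for 15 of 25 members (60%), where it did so for 64.8% of all genes tested. Of the 25 members, 12 share exon bases with another gene (15.9% of those of FOXM1, with ITFG2, for example), and the strand setting of the counting is not given in the sources used here.

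**Figure D1:**
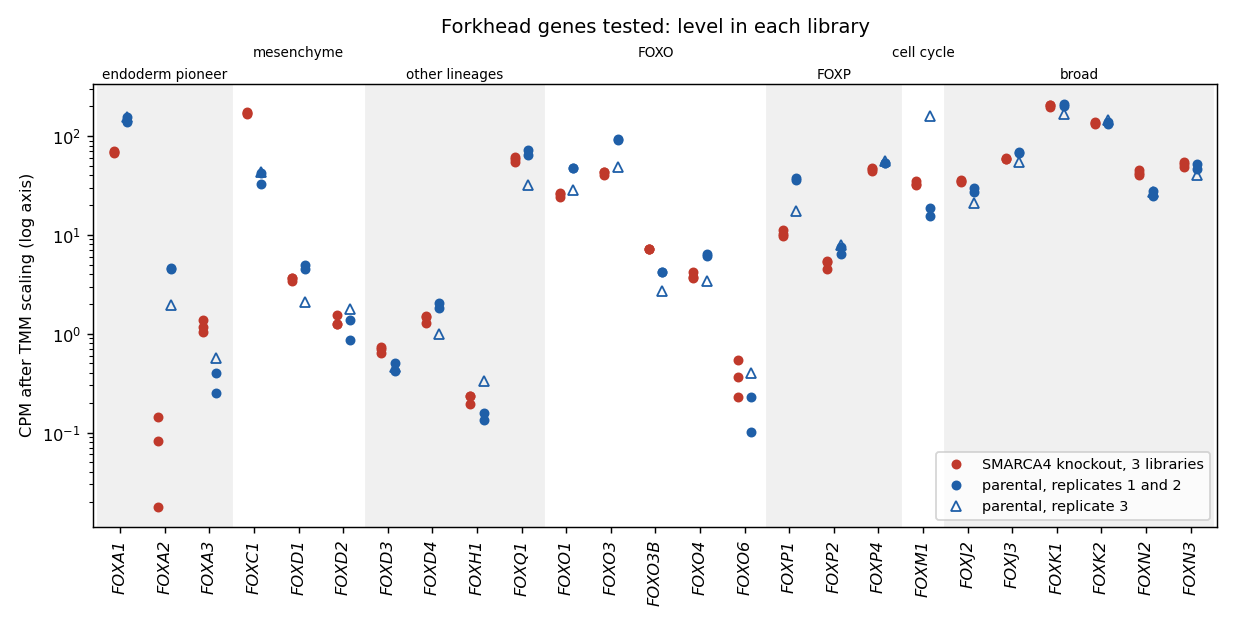
Level of each of the 25 forkhead genes tested, in CPM on a log axis, grouped by role. Red points are the 3 knockout libraries, blue points parental replicates 1 and 2, and open triangles parental replicate 3. FOXC1, FOXA3, FOXN2 and FOXO3B lie higher in all 3 knockout libraries than in any parental one, FOXA1, FOXA2, FOXP1 and FOXO3 lie lower, and FOXM1 in parental replicate 3 lies far above the other 5 libraries.

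Of the 3 endoderm pioneer genes, FOXA1 and FOXA2 fell and FOXA3 rose. FOXA1 (chromosome 14, 37589984 to 37596059 on GRCh38) was measured at 70.6, 67.8 and 69.6 CPM in the knockout and at 157, 139 and 156 CPM in the parental libraries. The groups did not overlap and parental replicate 3 lay within the range of the other parental libraries. The means were 69.3 ± 1.38 and 151 ± 10.1 CPM (SD, n = 3 each), a log2 fold change of -1.12 (SE 0.10, edgeR adjusted p = 0.00049), or a 2.18-fold lower level. In bulk RNA a lower share of cells with a transcript and less of it per cell cannot be told apart.

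FOXA2 (chromosome 20, 22581005 to 22585455), the paralog that with FOXA1 builds foregut endoderm, had 1, 8 and 5 reads in the knockout libraries against 260, 275 and 111 parental reads. That is 0.0177, 0.145 and 0.0828 CPM against 4.55, 4.6 and 1.95 CPM. It was close to the detection limit in every knockout library and passed the low-count filter through the parental group alone. Its log2 fold change was -5.47 (SE 0.64, edgeR adjusted p = 0.00179) and ranged from -6.11 to -5.00 over all the alternatives tried. FOXA3 (chromosome 19, 45863989 to 45873797), best known from liver and gut, was low throughout, at 1.04, 1.16 and 1.39 CPM in the knockout and 0.403, 0.251 and 0.563 CPM in the parental libraries. It rose by 1.56 on the log2 scale (SE 0.32, edgeR adjusted p = 0.0152). That call was lost without knockout replicate 2, knockout replicate 3 or parental replicate 1, with an adjusted p of at most 0.0675. In the knockout the level of FOXA3 per length exceeded that of FOXA2 (0.547 ± 0.081 against 0.031 ± 0.024 RPKM, the CPM divided by the exon length in kilobases, n = 3), and in the parental group the order was the opposite (0.185 ± 0.071 against 1.42 ± 0.58 RPKM).

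Genes described as targets or partners of FOXA proteins were read beside them. Of 30 on the list, 11 were tested, of which 5 fell, 3 rose and 3 did not pass (27.6% of all genes were called), with a median log2 fold change of -1.09. The fallers included AGR2, a secretory disulphide isomerase, from 323 ± 110 to 19.0 ± 1.89 CPM (log2 fold change -4.09), and SPDEF, a goblet cell factor, from 7.91 ± 6.28 to 0.0592 ± 0.0377 CPM (-7.03, and -6.20 without parental replicate 3). SPDEF was close to the detection limit in every knockout library and passed the filter through the parental group alone. TFF1, a trefoil peptide of mucous cells, changed by -1.83. CPS1, the most abundant gene of the list, rose from 494 ± 296 to 1721 ± 122 CPM (1.80, edgeR adjusted p = 0.0207). It was named after its values were seen. With CPS1 included, the list summed to 1662 to 1915 CPM in the knockout and 677 to 1440 CPM in the parental libraries. Of 12 tested without parental replicate 3, 8 fell and 3 rose, where 61.6% of all genes were called, 30.8% in each direction. NKX2-1, the lung partner of FOXA proteins named after its values were seen, had at most 0.0177 CPM in the knockout and 0.141 to 0.298 CPM in the parental libraries, too low to test with 6 libraries. The epithelial markers fell in the same libraries, as given above, and their part in the change of the FOXA genes was not tested.

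FOXC1 (chromosome 6, 1609972 to 1613897), a factor of mesenchyme, neural crest and vessels, rose. It was measured at 175, 169 and 169.5 CPM in the knockout and at 42.4, 32.9 and 42.9 CPM in the parental libraries. The lowest knockout library was far above the highest parental one, and parental replicate 3 was no exception. The means were 171 ± 3.30 and 39.4 ± 5.64 CPM, a log2 fold change of 2.12 (SE 0.13, edgeR adjusted p = 0.000177) or 4.34-fold, and the value stayed between 2.0 and 2.17 in all 13 alternatives. The fibroblast markers summed to 92.0 to 98.1 CPM in the knockout and to 39.5, 47.0 and 112 CPM in the parental libraries. COL1A1, which fell, made up 109 CPM of the sum in parental replicate 3. LUM rose from a mean of 0.368 to 26.8 CPM, MFAP5 from 0.719 to 38.5 CPM and COL3A1 from 0.158 to 5.10 CPM. The part of the fibroblast markers in the rise of FOXC1 was not tested.

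FOXC1 lies in a cluster near the end of the short arm of chromosome 6 with FOXQ1 and FOXF2, and the 3 genes differed widely. FOXQ1 (1312440 to 1314748), 295224 bases from FOXC1 and a factor known from hair follicle and stomach, stood at 55.3, 59.0 and 61.7 CPM in the knockout and at 71.8, 65.0 and 32.4 CPM in the parental libraries. The knockout libraries lay between parental replicates 1 and 2 on one side and replicate 3 on the other, and the log2 fold change was 0.06 (edgeR adjusted p = 0.905). It became -0.27 (adjusted p = 0.00339) without parental replicate 3. FOXF2 (1389576 to 1395603), a target of Hedgehog signalling in mesenchyme, had 2, 1 and 2 knockout reads and 0 in each parental library, and the exact 95% counting interval of the ratio starts at 0.925, so no difference was detectable at this depth. FOXCUT (1605531 to 1606079), a long non-coding RNA just upstream of FOXC1, had 0.831, 0.907 and 0.745 CPM in the knockout and 0.0525, 0.0335 and 0.158 CPM in the parental libraries. FOXCUT rose with a log2 fold change of 3.32 (edgeR adjusted p = 0.00409), or 4.16 without parental replicate 3, and it passed the filter through the knockout group alone. On the other side GMDS, 9909 bases beyond FOXC1, changed by -0.39 (edgeR adjusted p = 0.294) and GMDS-DT by 0.53 (0.112). EXOC2, which lies beyond FOXQ1 at the opposite end of the cluster, changed by 0.15 (edgeR adjusted p = 0.389).

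The 250 bases before the annotated starts of these 3 neighbours are printed to set a gene that rose beside 1 that was not called and 1 nearly without reads. They are from RefSeq on GRCh38.p14, plus strand, at chr6:1311848-1312097, chr6:1389326-1389575 and chr6:1609665-1609914. Capitals mark the GC box GGGCGG and the CCAAT box on either strand.
FOXQ1: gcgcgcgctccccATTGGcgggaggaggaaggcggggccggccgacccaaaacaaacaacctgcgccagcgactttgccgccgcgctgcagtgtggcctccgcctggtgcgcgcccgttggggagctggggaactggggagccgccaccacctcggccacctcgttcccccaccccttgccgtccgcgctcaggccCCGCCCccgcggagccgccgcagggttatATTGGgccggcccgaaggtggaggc
FOXF2: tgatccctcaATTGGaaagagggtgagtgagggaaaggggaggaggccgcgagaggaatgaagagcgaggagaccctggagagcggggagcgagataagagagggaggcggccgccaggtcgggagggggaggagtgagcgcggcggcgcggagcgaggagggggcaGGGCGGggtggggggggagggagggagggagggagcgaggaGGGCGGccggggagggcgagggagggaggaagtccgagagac
FOXC1: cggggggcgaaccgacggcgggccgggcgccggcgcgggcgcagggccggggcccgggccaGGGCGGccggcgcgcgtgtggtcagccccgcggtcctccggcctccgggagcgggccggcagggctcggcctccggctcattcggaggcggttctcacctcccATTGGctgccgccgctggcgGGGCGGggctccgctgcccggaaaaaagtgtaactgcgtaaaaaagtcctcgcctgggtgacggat
All 3 windows are rich in G and C (74%, 70.8% and 76.8%) and hold both boxes. No window holds the forkhead core TGTTTNC, the E-box CACCTG bound by ZEB and SNAIL factors, or the AP-1 site TGANTCA.

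The other members known from mesenchyme were low and were not called with all 6 libraries. FOXD1, of kidney stroma, had 3.69, 3.63 and 3.40 CPM in the knockout and 4.99, 4.5 and 2.11 CPM in the parental libraries (log2 fold change -0.11, edgeR adjusted p = 0.827). FOXD1 was lowest in parental replicate 3 and fell in the fit without it (-0.46, adjusted p = 0.00365). FOXD2 had 1.26, 1.54 and 1.24 CPM in the knockout and 1.38, 0.871 and 1.76 CPM in the parental libraries, which spanned the knockout values (0.01, adjusted p = 0.983). FOXC2, the closest paralog of FOXC1, had 7 reads in each group in all, and FOXL1 and FOXS1 had at most 3 in either, so no change of these was detectable at this depth.

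Genes of the Hedgehog pathway, which act upstream of FOXF1, FOXF2 and FOXL1, were tested for 14 of 19. Of these, 6 rose, 1 fell and 7 did not pass, with a median log2 fold change of 1.05. Of all genes 27.6% were called, 13.3% rising. BOC, a co-receptor, rose from 1.04 ± 0.232 to 4.33 ± 0.329 CPM (2.06), and KIF7, a kinesin of the pathway, from 2.94 ± 1.04 to 11.1 ± 0.552 CPM (1.92, and 1.60 without parental replicate 3). DISP1, which releases the ligand, changed by 1.29, and SCUBE2 by 2.99 from a parental level of 0.0287 ± 0.00965 CPM. SCUBE2 lay under the limit of 3 reads in every parental library and passed the filter through the knockout alone, so the size of its change is uncertain. PTCH1 and GLI1, the targets that report on the pathway (named after their values were seen), did not pass (0.25 and 0.75, edgeR adjusted p = 0.59 and 0.234). The 1 faller, GLI3 (-2.25, edgeR adjusted p = 0.0186), was not called when any library other than parental replicate 3 was left out. Without that replicate 9 of 14 genes rose and 1 fell, where 61.6% of all genes were called, 30.8% rising.

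**Figure D2:**
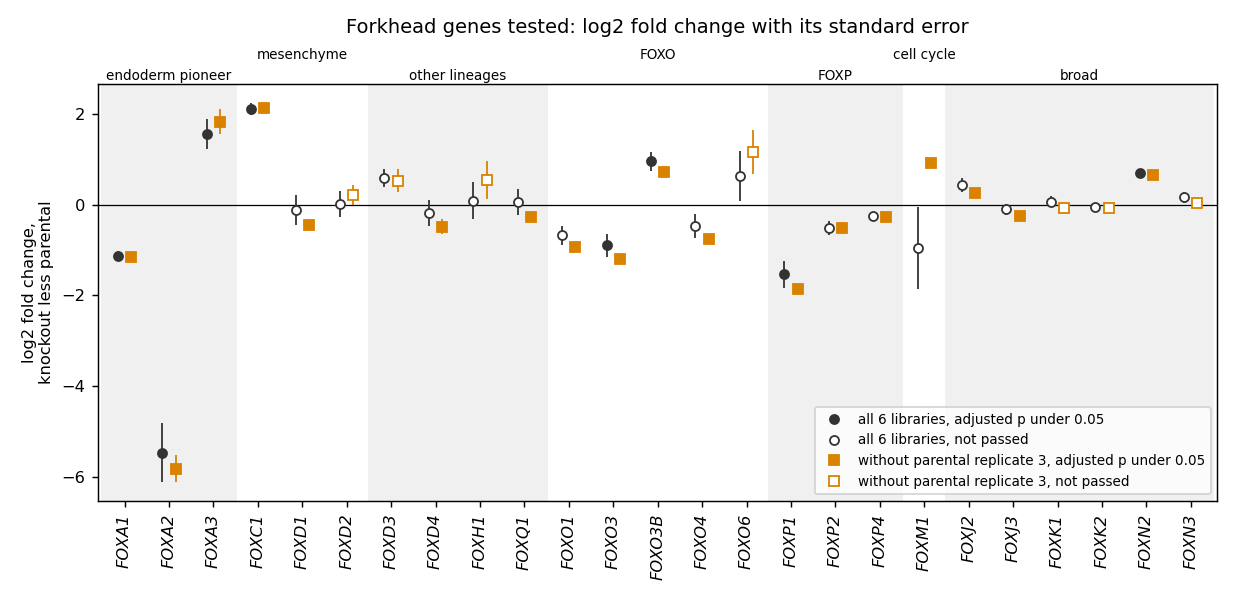
Log2 fold change of knockout less parental for the 25 forkhead genes tested, with its standard error, from all 6 libraries (dark) and without parental replicate 3 (orange). Filled symbols passed an adjusted p of 0.05. FOXM1 moves from -0.96 to 0.92 when that library is left out, and FOXA1, FOXA2, FOXA3, FOXC1, FOXN2, FOXO3, FOXO3B and FOXP1 are filled in both.

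Among the FOXO genes, the effectors that insulin and growth factor signalling hold in check, FOXO3 fell and its copy FOXO3B rose. FOXO1, FOXO3 and FOXO4 were lower in every knockout library than in parental replicates 1 and 2, and parental replicate 3 lay near the knockout. FOXO3 (chromosome 6, 108559835 to 108684774) was measured at 42.9, 42.9 and 40.4 CPM in the knockout and at 93.9, 92.1 and 49.2 CPM in the parental libraries. The groups did not overlap, but the third parental library was closer to the knockout than to its own group. The means were 42.0 ± 1.45 and 78.4 ± 25.3 CPM, with a log2 fold change of -0.90 (SE 0.25, edgeR adjusted p = 0.0423). That call was lost in 9 of 13 alternatives (adjusted p of at most 0.145), among them every library left out other than parental replicate 3, and without that replicate the value was -1.19 (adjusted p = 3.87e-10).

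FOXO1 (chromosome 13, 40469953 to 40666597) had 26.0, 26.6 and 24.4 CPM in the knockout and 47.1, 47.5 and 28.6 CPM in the parental libraries. It showed the same layout as FOXO3, without overlap, and did not pass (-0.68, SE 0.21, edgeR adjusted p = 0.0572), but was called without parental replicate 3 (-0.93, adjusted p = 1.71e-08), with RLE factors, without the low-count filter and by DESeq2. FOXO4 had 4.17, 3.76 and 3.69 CPM in the knockout and 6.43, 6.18 and 3.45 CPM in the parental libraries. Here parental replicate 3 was the lowest of all 6, the groups overlapped and the log2 fold change was -0.47 (adjusted p = 0.245), or -0.75 without it (adjusted p = 4.73e-05). FOXO6, the brain member, had 0.230, 0.544 and 0.364 CPM in the knockout and 0.228, 0.100 and 0.404 CPM in the parental libraries, and was not called in either fit.

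FOXO3B (chromosome 17, 18670946 to 18672873), a near-identical copy of FOXO3 annotated as a processed pseudogene, moved the other way. It had 7.14, 7.24 and 7.12 CPM in the knockout and 4.20, 4.20 and 2.69 CPM in the parental libraries (0.95, SE 0.21, edgeR adjusted p = 0.0182), without overlap. The call was lost with any 1 knockout library left out (adjusted p of at most 0.074). Reads that match both FOXO3 and FOXO3B may have been left unassigned or given to either, so both values are uncertain. A sum of both rows does not bring back unassigned reads. With both rows summed, the level was 47.5 to 50.1 CPM in the knockout and 98.1, 96.3 and 51.9 CPM in the parental libraries, and the change was -0.74 (adjusted p = 0.0735).

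The 250 bases before the starts of FOXO3 and FOXO1 are shown because both genes had the same layout over the 6 libraries. FOXO3 is read at chr6:108559575-108559824 on the plus strand and FOXO1 at chr13:40666642-40666891 on the minus strand (RefSeq, GRCh38.p14), with the same boxes in capitals.
FOXO3: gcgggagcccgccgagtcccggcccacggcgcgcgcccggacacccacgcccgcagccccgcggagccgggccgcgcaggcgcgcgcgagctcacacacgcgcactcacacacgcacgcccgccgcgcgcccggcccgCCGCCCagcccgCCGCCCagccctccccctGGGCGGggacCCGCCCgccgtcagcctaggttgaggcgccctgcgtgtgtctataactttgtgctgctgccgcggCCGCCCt
FOXO1: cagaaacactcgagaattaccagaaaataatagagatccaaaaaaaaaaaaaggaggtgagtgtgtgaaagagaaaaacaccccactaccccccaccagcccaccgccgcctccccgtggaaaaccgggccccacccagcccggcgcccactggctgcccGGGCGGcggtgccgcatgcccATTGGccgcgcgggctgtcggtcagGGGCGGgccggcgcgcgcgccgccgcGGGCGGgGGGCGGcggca
The FOXO3 window holds 5 GC boxes, and the FOXO1 window 4 GC boxes and a CCAAT box.

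Of 25 genes that control FOXO proteins, all were tested, 2 rose, 5 fell and 18 did not pass (27.6% of all genes were called), with a median of -0.11. SGK1, a kinase that phosphorylates FOXO3, rose from 10.1 ± 4.58 to 129 ± 4.29 CPM (log2 fold change 3.68, edgeR adjusted p = 0.00125). IRS2, the insulin receptor substrate that FOXO proteins also induce, rose from 45.7 ± 5.78 to 118 ± 6.90 CPM (1.36). AKT1 and AKT2, kinases that phosphorylate FOXO proteins and are named here after their values were seen, did not pass (-0.36 and -0.32). YWHAZ, a 14-3-3 protein that keeps FOXO proteins in the cytoplasm, fell (-0.68). The fit without parental replicate 3 had 7 rising and 13 falling, where 61.6% of all genes were called, 30.8% in each direction. With any other library left out, 2 or 3 rose and 2 or 3 fell.

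Genes described as FOXO targets moved in both directions. Of 32, 28 were tested, 5 rose, 8 fell and 15 did not pass, with a median of 0.06 (0.02 over all genes, of which 27.6% were called). PPARGC1A, a coactivator of mitochondrial genes, rose from 2.37 ± 0.670 to 40.9 ± 2.64 CPM (4.11) and SOD2, the mitochondrial superoxide dismutase, from 163 ± 14.1 to 390 ± 10.6 CPM (1.26). BBC3, a pro-apoptotic BH3 protein, changed by 0.87, and ERBB3, a receptor that rises when FOXO proteins are active, fell from 119 ± 33.4 to 18.1 ± 0.786 CPM (-2.71). There were 13 rising and 12 falling without parental replicate 3 (61.6% of all genes called), and with another library left out 4 or 5 rose and 3 to 5 fell.

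All 3 FOXP genes tested had a lower mean in the knockout, and 1 of them passed. FOXP1 (chromosome 3, 70952817 to 71583993), a transcriptional repressor known from lung epithelium, blood and brain, was measured at 10.2, 11.3 and 9.77 CPM in the knockout and at 37.8, 35.7 and 17.3 CPM in the parental libraries. Parental replicate 3 was lower than the other parental libraries and still above every knockout library. The log2 fold change was -1.53 (SE 0.30, edgeR adjusted p = 0.0126), and -1.86 (adjusted p = 2.86e-10) without parental replicate 3. It was lost when any 1 knockout library was left out (adjusted p from 0.0509 to 0.0645). FOXP2, known from speech circuits and distal lung, had 5.30, 5.41 and 4.52 CPM against 7.58, 6.40 and 7.86 CPM (-0.52, adjusted p = 0.051). FOXP4, the third FOXP factor of lung epithelium, had 47.2, 44.2 and 46.7 CPM against 53.8, 53.9 and 56.6 CPM (-0.25, adjusted p = 0.0819). Neither FOXP2 nor FOXP4 overlapped between groups, neither passed, and both were called without parental replicate 3 (-0.51 and -0.27) and by DESeq2 (adjusted p = 0.00335 and 0.00393). RLE factors also called both, and limma-voom and the filter of at least 1 CPM called FOXP2. FOXP3, the factor of regulatory T cells, had 25 reads in the knockout and 10 in the parental group. The ratio of knockout over parental was 2.52 (95% counting interval 1.17 to 5.89). It was too low to test with all 6 libraries and did not pass without parental replicate 3 (1.67, edgeR adjusted p = 0.0695).

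FOXM1, the mitotic forkhead factor (chromosome 12, 2857681 to 2877155), was decided by 1 library. It was measured at 35.3, 32.9 and 32.1 CPM in the knockout, at 18.5 and 15.7 CPM in parental replicates 1 and 2, and at 160.2 CPM in parental replicate 3. The knockout libraries thus lay above 2 parental libraries and below the third. With all 6 libraries the log2 fold change was -0.96 (SE 0.90, edgeR adjusted p = 0.48). Without parental replicate 3 it turned to 0.92 (SE 0.07, adjusted p = 3.82e-07).

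The mitotic genes described as FOXM1 targets had the same layout. None of 24 was called with all 6 libraries by edgeR, DESeq2 or limma-voom, and none had an unadjusted edgeR p under 0.05. The median was -1.23 with 22 of 24 negative. Without parental replicate 3, 23 of 24 rose and none fell, with a median of 0.62, where 30.8% of all genes rose. Parental replicate 3 was the highest library for all 24 genes. Their summed level was 926 to 965 CPM in the knockout, 579 and 532 CPM in parental replicates 1 and 2, and 3741 CPM in parental replicate 3. CDC25B, the phosphatase that starts mitosis, had 175, 186 and 197 CPM in the knockout and 67.3, 70.1 and 204 CPM in the parental libraries. TOP2A, the topoisomerase of dividing cells, had 112, 113 and 108 CPM in the knockout and 62.3, 53.3 and 394 CPM in the parental ones. What set parental replicate 3 apart is not stated in the labels.

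**Figure D3:**
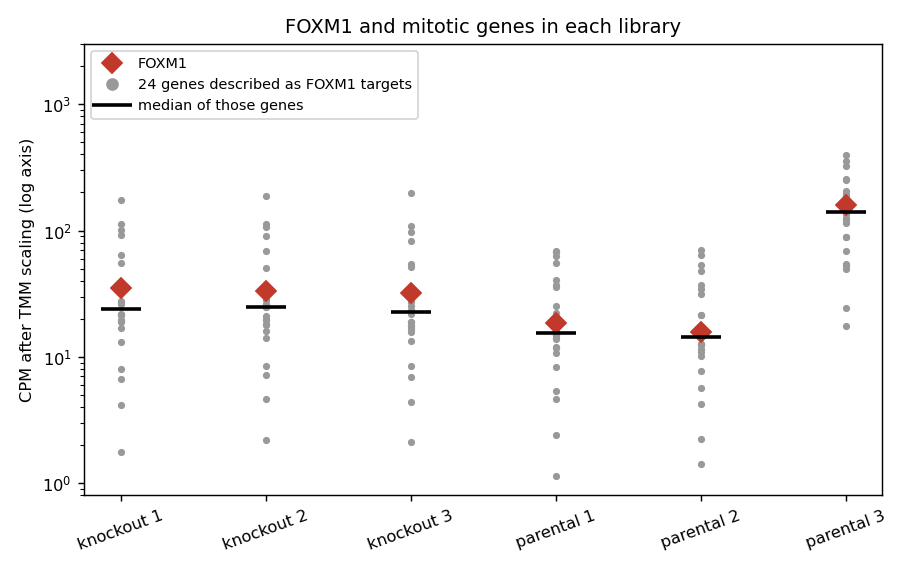
FOXM1 (red diamonds), 24 mitotic genes described as its targets (grey points) and their median (black bars) in each of the 6 libraries, in CPM on a log axis. FOXM1 stands at 160.2 CPM in parental replicate 3, against 15.7 and 18.5 CPM in the other parental libraries and 32.1 to 35.3 CPM in the knockout.

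Of the 6 broadly expressed members, FOXN2 rose and 5 did not pass. FOXN2 (chromosome 2, 48314637 to 48379294) had 42.7, 45.1 and 40.4 CPM in the knockout and 27.7, 24.5 and 27.0 CPM in the parental libraries. All 3 parental libraries lay together below the knockout, and the change was 0.69 (SE 0.10, edgeR adjusted p = 0.00427), between 0.63 and 0.74 in all 13 alternatives. FOXK1 and FOXK2, which regulate glycolysis and autophagy genes, were among the steadiest members. FOXK1 had 206, 208 and 196 CPM in the knockout and 212, 203 and 168 CPM in the parental libraries (0.06, SE 0.12, adjusted p = 0.741). FOXK2 had 138, 135 and 132 CPM against 139, 134 and 146 CPM (-0.05, SE 0.09, adjusted p = 0.704). For both genes the groups overlapped.

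FOXJ3, FOXN3 and FOXJ2, expressed in many tissues, also did not pass. FOXJ3 had 60.6, 58.9 and 58.2 CPM in the knockout and 67.1, 69.2 and 54.8 CPM in the parental libraries (-0.11, edgeR adjusted p = 0.551). FOXN3, a checkpoint repressor, had 52.4, 55.1 and 48.8 CPM against 51.8, 46.5 and 40.8 CPM (0.17, adjusted p = 0.355). FOXJ2 had 36.4, 35.2 and 34.2 CPM against 29.9, 27.2 and 21.1 CPM (0.44, adjusted p = 0.0775). Of these only FOXJ2 had groups that did not overlap, with the knockout higher. Without parental replicate 3, FOXJ2 rose and FOXJ3 fell (0.26 and -0.25).

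The members of other restricted lineages were mostly at or near the detection limit. Of the 4 tested, FOXQ1 is given above, and FOXD3 (neural crest), FOXD4 and FOXH1 (a partner of SMAD proteins) did not pass. FOXD3 had 0.636, 0.708 and 0.729 CPM in the knockout and 0.508, 0.419 and 0.457 CPM in the parental libraries, without overlap (0.58, edgeR adjusted p = 0.0788). It shares 8.58% of its exon bases with FOXD3-AS1 on the other strand, which did not pass either (0.75, adjusted p = 0.063). FOXD4 had 1.5, 1.49 and 1.29 CPM in the knockout and 1.84, 2.03 and 1.00 CPM in the parental libraries (-0.19, adjusted p = 0.681), and it fell without parental replicate 3 (-0.49, adjusted p = 0.0207). It is 1 of several near-identical copies that can share reads, and its value with the counts of 5 copies added was -0.02. That sum does not bring back unassigned reads either. FOXH1 had 0.194, 0.236 and 0.232 CPM against 0.158, 0.134 and 0.334 CPM (0.09, adjusted p = 0.899) and shares 31.6% of its exon bases with KIFC2 on the other strand, so its reads are uncertain where strand was not counted.

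Members under the filter with all 6 libraries are given by their reads. FOXI3, of the family that specifies ionocytes and placodes, had 3, 1 and 5 knockout reads and 28, 15 and 7 parental reads, a 5.50-fold difference in sum (95% counting interval 2.68 to 12.7). The lowest parental library was above the highest knockout library by 2 reads. It was tested without parental replicate 3 and fell (-2.82, edgeR adjusted p = 0.00077), having passed that filter through the parental libraries alone. FOXL2, of ovarian granulosa cells, had 0, 1 and 1 knockout reads against 3, 4 and 13 parental reads, the 13 in parental replicate 3. Its ratio of parental over knockout was 9.91, with an interval of 2.41 to 87.4. FOXN4, of retina and spinal cord progenitors, had 6, 7 and 5 knockout reads against 0, 3 and 3 parental reads. Its ratio of knockout over parental was 3.03 (1.15 to 9.32). FOXE3, FOXC2 and FOXN1 had 17, 14 and 7 reads over all 6 libraries, and FOXB1, FOXB2, FOXE1, FOXI1, FOXL1 and FOXS1 had at most 5. Differences of these last 9 genes were not detectable at this depth.

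FOXJ1, the master factor of motile cilia, had 0 reads in each knockout library and 15, 14 and 5 reads in the parental ones. The exact 95% counting interval puts the parental level at least 8.64-fold higher. It was too low to test with all 6 libraries and was called without parental replicate 3 (edgeR adjusted p = 0.000175), a fit whose filter it passed through the parental libraries alone. Of 28 genes of the cilium programme, 13 were tested, 4 fell, none rose (7 of 13 had an unadjusted p under 0.05) and 9 did not pass. Of all genes 27.6% were called, 14.3% falling. The median was -0.67. The fallers were TP73 (-3.64, edgeR adjusted p = 0.00139), RSPH1 (-2.21), DNAH5 (-1.55) and RFX3 (-0.52). TP73 had 0.0707, 0.0726 and 0.149 CPM in the knockout libraries, close to the detection limit, and passed the filter through the parental group alone. DNAH5, a motor of the outer dynein arm, had 2.12, 2.18 and 2.14 CPM in the knockout and 7.44, 7.87 and 3.57 CPM in the parental libraries. With any 1 knockout library left out 1 gene was called falling, and without parental replicate 3, 9 of 14 fell, where 61.6% of all genes were called, 30.8% falling. DESeq2 called 7 falling, and none rose by edgeR, DESeq2 or limma-voom. The summed level of the 28 genes was 41.1 to 45.7 CPM in the knockout and 56.3 to 75.6 CPM in the parental group.

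Of the 15 ionocyte genes, 5 were tested and KIT, a receptor that marks ionocytes, fell (-0.76, edgeR adjusted p = 0.0146), where 27.6% of all genes were called. None was called falling when a knockout library or parental replicate 1 was left out, and without parental replicate 3, 1 of 6 rose and 4 fell (61.6% of all genes were called). FOXI1 itself had 1 read in parental replicate 1 and 0 in the other 5 libraries.

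**Figure D4:**
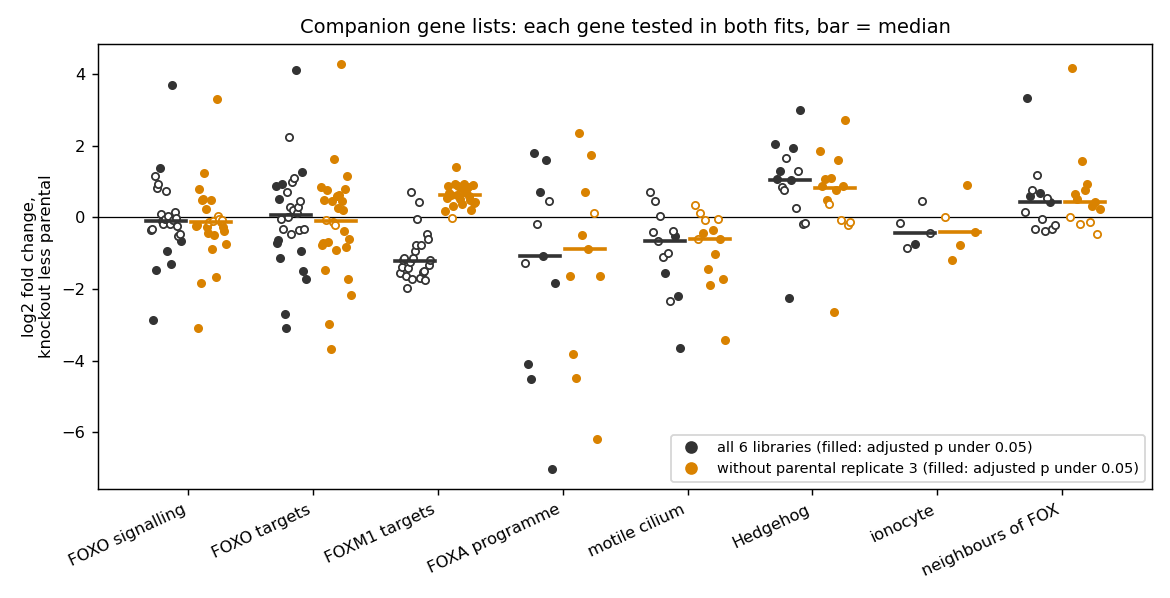
Log2 fold change of knockout less parental for genes of the 8 companion lists tested in both fits, from all 6 libraries (dark) and without parental replicate 3 (orange). Filled points passed an adjusted p of 0.05 and bars are medians of the points shown. The FOXM1 targets lie mostly below 0 with 6 libraries and above 0 without that replicate, and the Hedgehog genes lie mostly above 0 in both.

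Set per length of annotated exons, the summed level of the 25 members was much the same in all libraries, at 176, 175 and 173 RPKM in the knockout and 179, 165 and 171 RPKM in the parental ones. Its make-up was not the same. FOXC1 held 25.2%, 24.5% and 24.9% of the sum in the knockout libraries and 6.03%, 5.07% and 6.40% in the parental ones. FOXA1 held 10.1%, 9.73% and 10.1% against 22.1%, 21.2% and 22.9%. In the parental group the most abundant member was FOXA1 (37.9 ± 2.53 RPKM), followed by FOXQ1 (24.4 ± 9.13) and FOXK1 (14.9 ± 1.78). In the knockout it was FOXC1 (43.5 ± 0.841 RPKM), followed by FOXQ1 (25.4 ± 1.38) and FOXA1 (17.4 ± 0.346). FOXK1 (15.5 ± 0.502 RPKM) and FOXK2 (13.5 ± 0.297) came next. FOXQ1 varied within the parental group, from 17.4% and 17.0% of the sum in replicates 1 and 2 to 8.20% in replicate 3, where FOXM1 held 19.1%.

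With the longest annotated transcript as the length, FOXC1 stayed first in the knockout and FOXA1 first in the parental group, and FOXK2 came second in both. The length matters most for FOXP1, whose annotated exons cover 36714 bases and whose longest transcript has 8994. Its parental level was 0.825 RPKM by the first and 3.37 RPKM by the second.

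**Figure D5:**
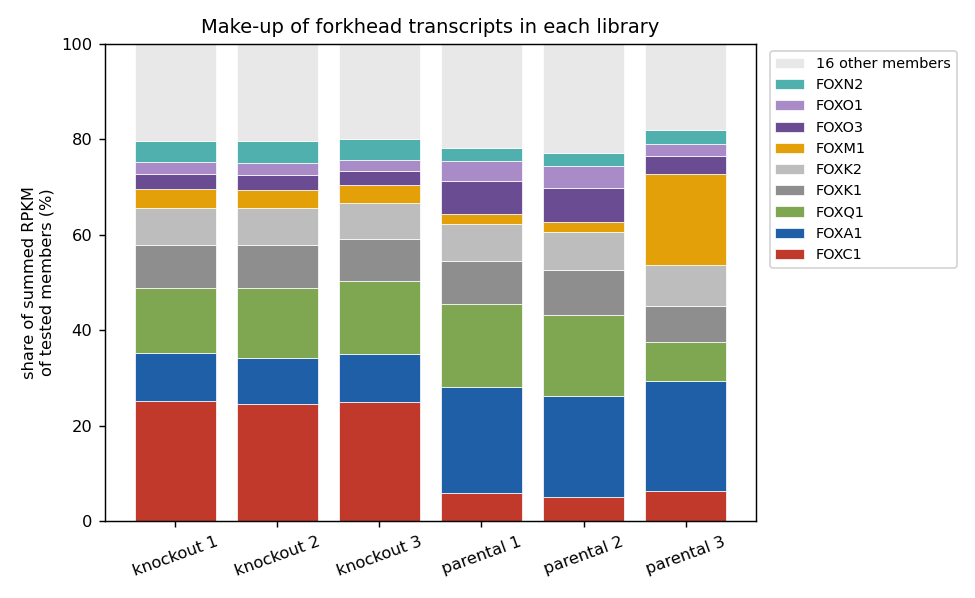
Share of the summed RPKM of the 25 tested forkhead genes held by 9 members and by the other 16, in each library. FOXC1 (red) takes 24.5% to 25.2% in the knockout and 5.07% to 6.40% in the parental libraries, FOXA1 (blue) 9.73% to 10.1% and 21.2% to 22.9%, and FOXM1 (yellow) 19.1% in parental replicate 3.

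The nearest tested coding genes on each side of the 8 called members lay between 699 and 1191178 bases away. Of these 16 genes, 2 were called in the member's direction, 2 in the opposite one and 12 were not called. The called share was near the 27.6% of all genes, so the count by itself is not a result about the neighbours. SSTR1, 611940 bases from FOXA1, fell (-3.52, and -2.83 without parental replicate 3), as did MITF, 984480 bases from FOXP1 (-1.83). THBD beside FOXA2 rose (2.07) and LGALS9C beside FOXO3B fell (-2.48, and -1.59 without parental replicate 3). These 4 were named after their values were seen.

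Of the transcripts named for or lying beside forkhead genes, 13 were tested, 4 rose, none fell (6 of 13 had an unadjusted p under 0.05) and 9 did not pass. Of all genes 27.6% were called, 13.3% rising. DESeq2 and limma-voom also called none falling. Besides FOXCUT, the risers were FOXD2-AS1 (3.73 ± 0.414 to 5.64 ± 0.258 CPM, 0.60), FOXN3-AS1 (0.67, edgeR adjusted p = 0.0437) and MTHFSD (0.42), which lies beside the FOXF1, FOXC2 and FOXL1 cluster. FOXD2 and FOXN3 themselves did not pass. With any 1 library other than parental replicate 3 left out, 1 of the 13 was called, and without that replicate 9 rose, where 30.8% of all genes did. PTCSC2 (-0.33), FOXP4-AS1 (-0.04) and FOXL2NB (1.18) did not pass with all 6 libraries. In the fit without parental replicate 3, FOXP4-AS1 turned to 0.92 and rose (edgeR adjusted p = 0.031), as did FOXL2NB (1.56, adjusted p = 0.0329), FOXD3-AS1 (0.51), GMDS-DT (0.31) and RHNO1 (0.23). RHNO1, which shares a bidirectional promoter with FOXM1, had 20.5 to 23.1 CPM in the knockout, 19.1 and 17.2 CPM in parental replicates 1 and 2 and 40.7 CPM in replicate 3 (-0.22, adjusted p = 0.676).

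Upstream windows of 250 bases were given by RefSeq for 34 of the 46 members, 45 windows in all. The GC box stood in 64.4% of them, where 42.6% of 35116 windows of all genes held it. The CCAAT box stood in 20% (32% of all windows), the forkhead core TGTTTNC in 8.89% (15.5%), the E-box CACCTG in 26.7% (17.5%) and the AP-1 site TGANTCA in 8.89% (6.57%). Both strands were searched, and none of these motifs contains another. Windows of 1 gene can share bases, so these shares are descriptions. FOXA1 was among the 4 members with a forkhead core, together with FOXD4, another annotated start of FOXO3 and an internal start of FOXP1.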

How the data were processed

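RNA-seq reads of 6 H2122 libraries were counted per gene by the authors, who deposited raw counts per GENCODE 29 gene symbol. TopHat2 2.1.1, HTSeq 0.11.0 and hg38 are named per the submitters' processing notes, and the strand setting is not given in the sources used here. Between 13.8% and 15.3% of the counted reads were in unassigned classes and were left out.

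From the counts, edgeR 4.0.16 (R 4.3.3; TMM factors, filterByExpr, robust quasi-likelihood test, 3 against 3 libraries) was fitted to all genes with Benjamini-Hochberg adjustment and a threshold of 0.05. The standard error is the size of the log2 fold change divided by the square root of F. RPKM used the summed exon length of GENCODE 29. The script was tested on simulated counts. Ratios of summed reads have exact 95% intervals, which cover counting error only. No pair of libraries agreed within sampling noise.

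The members, the companion lists and the tests were chosen with earlier results of these data known. Every member with a read is named or counted, of each list the 4 members with the smallest adjusted p are named (the 2 with the highest level where none passes), and all tested transcripts beside forkhead genes are named. A few genes that this rule selects are not reported here. RefSeq promoter windows are on GRCh38.p14. Other fits used RLE or upper-quartile factors, no filter, a filter of at least 1 CPM in each of 3 libraries, DESeq2 (version 1.42.0), voom of limma 3.58.1, a block for the replicate number, or 5 of the 6 libraries. The sums of FOXO3 with FOXO3B and of FOXD4 with its copies, and the longest transcript as length, were added after seeing the data.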

Additional observations from a re-analysis of the deposited data

How the results depend on the processing

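Over 13 alternatives, 271 of 322 values of tested members kept their direction and their side of the threshold, and FOXA1, FOXA2, FOXC1 and FOXN2 kept their call in all 13. The FOX genes called falling numbered 7 with RLE factors, 7 without the filter and 7 by DESeq2. FOXO signalling genes called rising numbered 4 by DESeq2 and 4 by limma-voom, and FOXO targets falling 5 by limma-voom. By DESeq2 7 cilium genes fell. Of the Hedgehog genes 0 fell with at least 1 CPM in 3 libraries. Of the ionocyte genes 2 fell with RLE factors, 2 by DESeq2 and 3 without the filter, where 1 transcript beside a forkhead gene rose. The cause of each was not tested.

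The same replicate numbers did not pair the libraries (correlations of deviations -0.04, 0.00 and -0.07, and no knockout library was closest to its own number). With the replicate block, 1378 genes rose and 1662 fell, 4 FOXO targets fell, 0 Hedgehog and 0 ionocyte genes fell, and 1 transcript beside a forkhead gene rose. FOXO3 and FOXO3B were not called there (adjusted p = 0.0716 and 0.0526, edgeR).

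With 1 library left out at a time, 1221 to 5665 genes rose and 1471 to 5660 fell, and 2 to 6 FOX genes rose and 2 to 14 fell. The ranges were 2 to 7 rising and 2 to 13 falling for FOXO signalling, 4 to 13 and 3 to 12 for FOXO targets, 0 to 23 and 0 to 0 for FOXM1 targets, and 2 to 3 and 5 to 8 for the FOXA list. They were 0 and 1 to 9 for the cilium, 5 to 9 and 0 to 1 for Hedgehog, 0 to 1 and 0 to 4 for the ionocyte list, and 1 to 9 and 0 for transcripts beside forkhead genes. The highest counts came without parental replicate 3.

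Values that reversed were those of members not called with 6 libraries. Left-out libraries gave FOXD1 -0.46 to 0.11 (0.0034 without parental replicate 2), FOXD2 -0.23 to 0.21 (-0.09 without knockout replicate 2), FOXD4 -0.49 to 0.0011, FOXH1 -0.16 to 0.55 (-0.08 without parental replicate 1), FOXK1 -0.081 to 0.13, FOXM1 -1.42 to 0.92 and FOXQ1 -0.27 to 0.27. FOXD2 was -0.038 with RLE factors and by DESeq2, and without the filter FOXD2 was -0.048, FOXK1 -0.0034 and FOXQ1 -0.013.

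The depth of 55120937 to 59917980 reads leaves members with fewer than about 3 reads a library undecided.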
